A study of Mus musculus with 15 samples.

Results

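Transcripts of 7 chemokine ligand genes, Ccl1, Ccl3, Ccl4, Ccl5, Ccl20, Xcl1 and Cxcl10, were followed in cultured mouse CD4 T cells. The genes were taken by symbol, through their Ensembl gene IDs, from a table of 55421 genes, and each symbol matched 1 ID. The study measured poly(A) RNA in 15 libraries, 3 in each of 5 groups, to compare a compound code-named Srci1 with loss of the transcription factor STAT3 in TH17 cultures, and to set Treg cultures beside them. Naive CD4 T cells (CD25-, CD62L high, CD44 low) were sorted from spleen and lymph node, stimulated with plate-bound anti-CD3 at 2 μg/ml and anti-CD28 at 1 μg/ml, and harvested on day 5. The groups were wild-type TH17 cultures with Srci1, STAT3-knockout TH17 cultures with the vehicle DMSO, wild-type Treg cultures with Srci1, wild-type Treg cultures with DMSO, and wild-type TH17 cultures with DMSO. The knockout cells came from STAT3-fl/fl CD4-cre mice, in which Cre driven by Cd4 acts in T cells. TH17 cultures contained TGFβ at 2.5 ng/ml and IL-1β, IL-6 and IL-23 at 10 ng/ml each, while Treg cultures contained TGFβ at 0.5 ng/ml, or at another indicated dose, and IL-2 at 200 U/ml. Antibodies to IFNγ and IL-4, at 1 μg/ml each, were present in all groups and are shared by every comparison. Srci1 went in 24 h after plating, and the labels used here give no concentration for it.

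Chemokines are small secreted proteins that draw cells along a gradient by binding G-protein-coupled receptors. They are classed by the cysteines near the start of the mature protein. CC chemokines have the first cysteines side by side, CXC chemokines have another residue between them, and the C chemokine XCL1 lacks the usual partner. Activated T cells secrete several of them and so recruit other immune cells. XCL1 attracts cross-presenting dendritic cells through XCR1, CCL1 is the ligand of CCR8 on TH2 cells and regulatory T cells, and CCL3, CCL4 and CCL5 are inflammatory chemokines that attract T cells and monocytes, with CCL3 and CCL5 binding CCR1. CCL20 is the ligand of CCR6 and is a known product of TH17 cells, which carry CCR6 themselves. CXCL10 is induced by interferons and attracts TH1 cells through CXCR3.

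The class signature can be read in the coding sequence of each gene, which is shown because the members are compared throughout as CC, C and CXC ligands. The stretches below are 48 coding bases each, 5′ to 3′ on the coding strand, from GENCODE M21 transcripts on GRCm38, with the first cysteine codons after codon 25 in capitals.
Ccl1, codons 27 to 42 of 92, chr11:82176657-82179812, minus strand: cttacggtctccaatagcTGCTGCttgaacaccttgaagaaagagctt
Ccl3, codons 28 to 43 of 92, chr11:83647844-83649355, minus strand: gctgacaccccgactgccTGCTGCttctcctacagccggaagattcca
Ccl4, codons 28 to 43 of 92, chr11:83662584-83664683, plus strand: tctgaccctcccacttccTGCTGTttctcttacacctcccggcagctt
Ccl5, codons 27 to 42 of 91, chr11:83525778-83530518, minus strand: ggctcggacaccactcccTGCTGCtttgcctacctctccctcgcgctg
Ccl20, codons 26 to 41 of 102, chr1:83116766-83119166, plus strand: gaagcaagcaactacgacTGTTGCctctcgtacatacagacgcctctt
Cxcl10, codons 24 to 39 of 98, chr5:92346638-92348882, minus strand: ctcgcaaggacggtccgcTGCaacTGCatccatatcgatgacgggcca
Xcl1, codons 26 to 41 of 114, chr1:164931644-164935527, minus strand: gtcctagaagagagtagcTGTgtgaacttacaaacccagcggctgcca
The coordinates are those of the whole transcript. The 5 Ccl genes held 0 codons between these cysteine codons, Cxcl10 held 1, and in Xcl1 the next cysteine codon followed after 36 others. Ccl3 and Ccl4 lay 13228 bases apart on chromosome 11 and were the most alike in coding sequence of the 21 member pairs, with 69.63% of 270 aligned bases identical. Ccl5 lay 117325 bases from Ccl3 on the same chromosome. No run of 50 transcript bases was shared with another gene for any of the 5 Ccl genes, so their reads could be told apart at that length. Xcl1 shared 10.759% of such runs with Gm20743, a gene model on the opposite strand that overlaps it, and Cxcl10 shared 3.585% with Art3, which overlaps it on the opposite strand. Whether reads were counted by strand is not stated in the labels, so reads of these pairs could have been split. Gm20743 was at most 2.54 TPM in any library and Art3 at most 0.44 TPM.

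Levels are given in TPM, a length-corrected share of all transcripts that lets different genes be compared within a library. The depth per library is unknown. Libraries correlated at 0.977 to 0.986 within groups and at 0.902 to 0.97 between groups, and none stood apart. Stat3 was 33.5, 38.4 and 30.7 TPM in the knockout TH17 libraries, against 129.7, 132.9 and 99.8 TPM in wild-type TH17 libraries with DMSO (log2 difference -1.78, limma adjusted p = 3.75e-09). The CD4 T cell markers summed to 1749 to 2629 TPM in every library. In the DMSO groups, Il17a averaged 1338 TPM in TH17 cultures and Foxp3 averaged 129.7 TPM in Treg cultures. All 4 TH17 culture markers were lower in Treg than in TH17 cultures with DMSO. The 4 Treg culture markers were mixed, with 2 higher in Treg cultures, 1 not called (Il2ra) and 1 lower. The lower one was Ctla4, at 324.2 TPM in Treg cultures and 410.5 TPM in TH17 cultures. The Srci1-treated and the STAT3-knockout TH17 cultures held little Il17a, at 40.4 and 10.2 TPM, and their Foxp3 averaged 203.6 and 204.6 TPM, against 11.7 TPM in wild-type TH17 cultures with DMSO. Against those DMSO cultures, 3 of the 4 Treg culture markers were higher with Srci1 and 1 was not called. In the knockout 2 were higher and 2 lower. The lower ones were Il2ra, at 371.8 TPM in the knockout and 692.3 TPM with DMSO, and Ctla4, at 203.5 and 410.5 TPM. These cultures are therefore called by their conditions. In bulk RNA, fewer cells making a transcript and less transcript per cell cannot be told apart. Nothing in the labels says that the 3 libraries of a group came from separate animals, so a p-value speaks only of the spread among these libraries, which may be technical.

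All 7 genes passed the filter of at least 1 TPM in at least 3 libraries. The gene with the widest span on the log2(TPM + 1) scale was Xcl1, with means of 1584 TPM in STAT3-knockout TH17 cultures, where it ranked 107th of all genes in the table by TPM, and 3.55 TPM in TH17 cultures with DMSO. Ccl1 spanned 0.203 to 162 TPM, and its highest group was Treg cultures with Srci1. Ccl3, Ccl4 and Ccl5 were all highest in Treg cultures with DMSO, followed by the knockout TH17 cultures and then Treg cultures with Srci1. Ccl20 alone was highest in TH17 cultures with DMSO, followed by the knockout, and was lowest in Treg cultures with Srci1. Neighbouring groups in these orders did not overlap in any library for Ccl1, Ccl3, Ccl20 and Xcl1. They overlapped for Ccl4 between knockout TH17 and DMSO-treated Treg cultures, for Ccl5 between Srci1-treated and DMSO-treated TH17 cultures, and for Cxcl10 between every pair of neighbours.

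**Figure D1:**
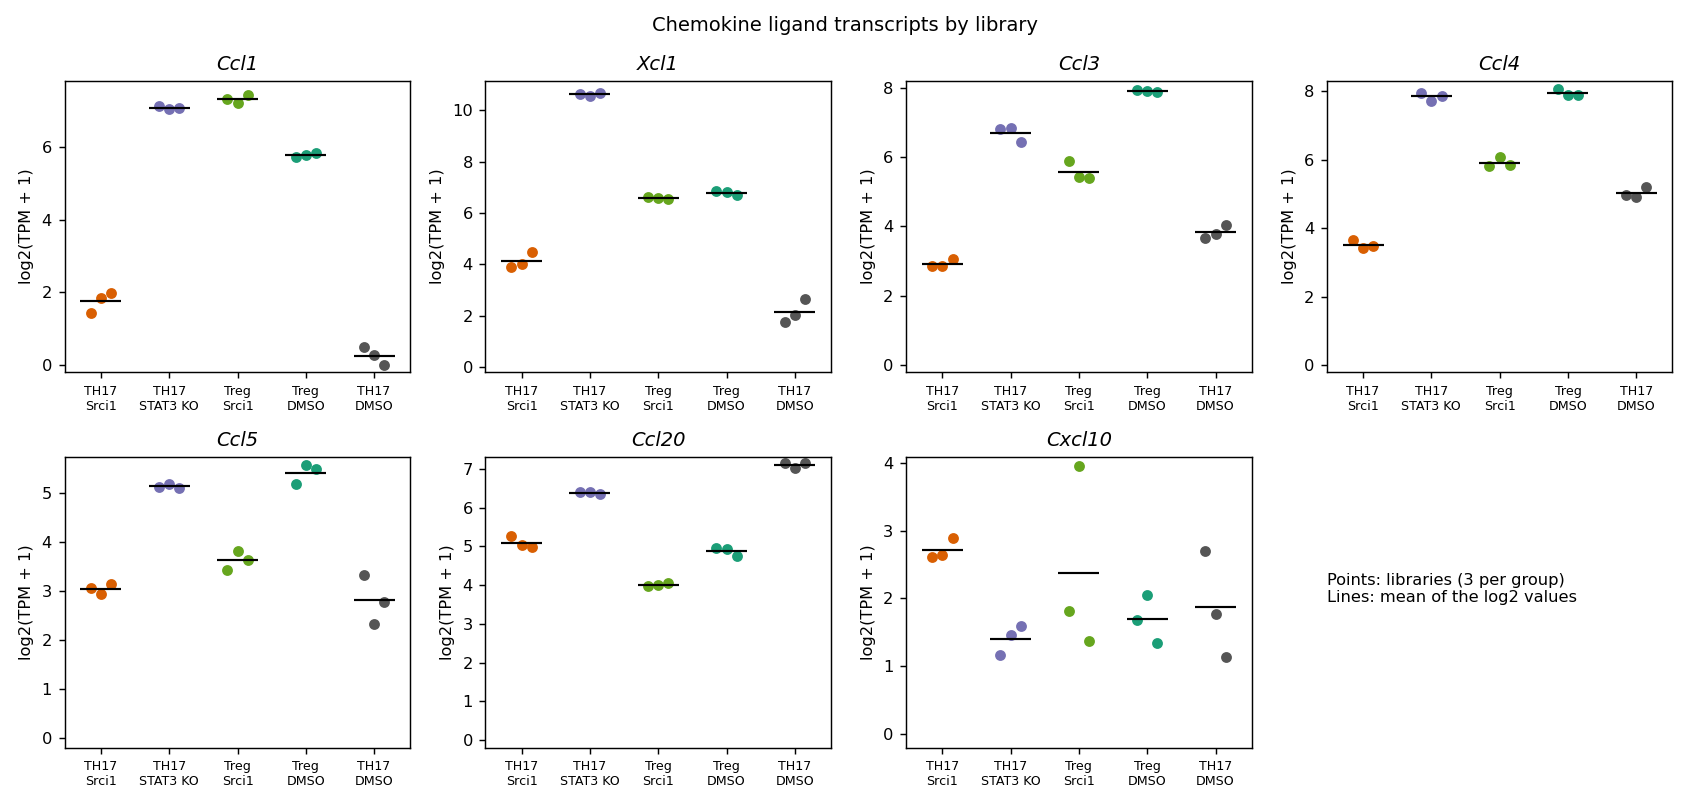
Log2(TPM + 1) of each chemokine ligand gene by library, with 1 panel per gene, groups along the horizontal axis, a point for each of 3 libraries per group and a line at the mean of the log2 values. Xcl1 and Ccl1 lie near the bottom in TH17 cultures with DMSO and near the top in STAT3-knockout TH17 cultures, Ccl20 is highest in TH17 cultures with DMSO, and the Cxcl10 groups overlap.

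STAT3-knockout TH17 cultures held far more Xcl1 and Ccl1 transcript than wild-type TH17 cultures, more Ccl3, Ccl4 and Ccl5, and less Ccl20. Of the 7 genes 5 rose and 1 fell, where 30.9% of the 12800 tested genes rose and 18.9% fell, 49.7% in all. The 7 genes were chosen with earlier results of these data known. Setting their counts and medians beside those of all genes, here and below, is therefore a description. The members' median log2 difference was 2.82, against 0.129 over all tested genes. Of the calls over all genes, 62.1% were rises, and 51.6% under median-of-ratios scaling. Differences are also given relative to the all-gene median, because rescaling the libraries moves that median by more than 0.1.

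Xcl1 was 1588, 1513 and 1652 TPM in the knockout libraries, against 2.37, 3.09 and 5.20 TPM in the wild-type TH17 libraries with DMSO. No knockout library came near any wild-type one. The ratio of means was 445.8, and the log2 difference, on the log2(TPM + 1) scale used for all tests, was 8.49 ± 0.18 (SE; limma adjusted p = 2.73e-13; 8.36 relative to the median). Its antisense neighbour Gm20743 moved with it, at 1.89, 2.54 and 2.15 TPM in knockout libraries and at 0 in the 3 wild-type ones. Ccl1 was 139.8, 131.2 and 134.5 TPM in knockout libraries, against 0.41, 0.20 and 0 TPM in wild-type libraries. Transcript of this CCR8 ligand was thus close to absent in wild-type TH17 cultures, and the size of its fold change rests on that low level. The ratio of means was 664.8, and the log2 difference was 6.84 ± 0.14 (limma adjusted p = 2.24e-13; 6.71 relative to the median), or 9.09 with a pseudocount of 0.1 in place of 1.

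Ccl3, Ccl4 and Ccl5 rose together. Ccl3 was 111, 113.1 and 86.2 TPM in knockout libraries, against 11.7, 12.8 and 15.5 TPM in wild-type libraries, a 7.76-fold difference (log2 2.86 ± 0.14, limma adjusted p = 8.74e-10; 2.73 relative to the median). Its neighbour Ccl4 was 247.3, 210.4 and 232.4 TPM, against 30.6, 29.1 and 35.6 TPM in wild-type libraries, a 7.23-fold difference (log2 2.82 ± 0.10, limma adjusted p = 2.87e-11; 2.69 relative to the median). The folds of this adjacent gene pair were close to one another. Ccl5 was 33.8, 35.2 and 33.4 TPM in knockout libraries, against 9.04, 4.04 and 5.83 TPM in wild-type libraries, a 5.42-fold difference (log2 2.32 ± 0.19, limma adjusted p = 2.54e-07; 2.19 relative to the median). In none of the 3 did a knockout library overlap a wild-type one.

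Ccl20, the CCR6 ligand tied to TH17 cells, was lower in the knockout. It was 83.2, 84.5 and 80.3 TPM in knockout libraries, against 140.3, 128.6 and 141.8 TPM in wild-type libraries. The groups did not overlap, and the knockout mean was 1.66-fold lower (log2 -0.72 ± 0.08, limma adjusted p = 6.76e-06; -0.85 relative to the median). Il17a, for scale, was 10.2 ± 1.45 TPM in the same knockout libraries, against 1338 ± 51.5 TPM in wild-type ones (SD, n = 3 each). Cxcl10 was low, at 1.25, 1.76 and 2.01 TPM in knockout libraries, against 5.52, 2.42 and 1.21 TPM in wild-type libraries. These groups overlapped and the difference did not pass the test (log2 -0.47 ± 0.53, limma adjusted p = 0.493).

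Markers of cells other than CD4 T cells also differed between these groups. The 12 myeloid and dendritic cell markers summed to 13.8 to 16.0 TPM in knockout libraries, against 5.13 to 7.99 TPM in wild-type libraries, and 2 of the 3 that could be tested rose, while Tyrobp and Cd14 were at 0 in the knockout. The 7 B cell markers summed to 13.9 to 14.2 TPM in knockout libraries, against 0.78 to 1.03 TPM in wild-type libraries, and 3 of 3 tested rose. The 7 CD8 T cell and NK cell markers summed to 12.7 to 16.8 TPM in knockout libraries, against 49.1 to 52.2 TPM in wild-type libraries, with Ncr1 and Klra1 at 0 in both groups. Klrd1 carried most of the wild-type sum, at 42.8 TPM on average, and fell to 1.27 TPM in the knockout. Cd8a rose, from 0.017 TPM in wild-type libraries to 4.74 TPM in the knockout. The other 2 of the 4 CD8 T cell and NK cell markers tested were not called, so the lower sum is that of Klrd1. In the knockout, Cd68 at 10.6 TPM and Itgam at 2.46 TPM carried most of the myeloid sum, with Lyz2 at 0.087 and Csf1r at 0.013 TPM. Cd79b at 8.10 TPM and Cd79a at 3.15 TPM carried most of the B cell sum, with Ms4a1 at 0.227 and Pax5 at 0.157 TPM. Whether such other cells were present, and their part in the chemokine differences, were not tested.

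**Figure D2:**
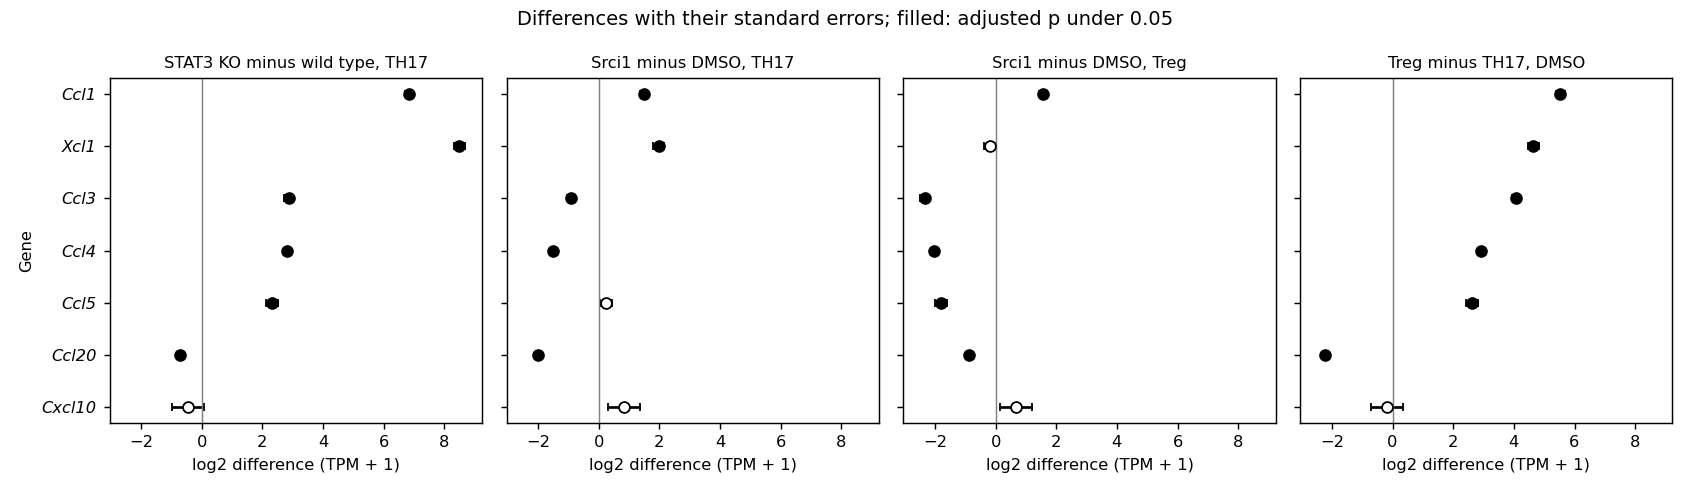
Log2 differences of the 7 genes with their standard errors, in 4 panels for STAT3 knockout minus wild type in TH17 cultures, Srci1 minus DMSO in TH17 cultures, Srci1 minus DMSO in Treg cultures and Treg minus TH17 cultures with DMSO; filled points have a limma adjusted p under 0.05. Xcl1 reaches 8.49 in the knockout panel and is an open point at -0.19 for Srci1 in Treg cultures, and Cxcl10 is open in all 4 panels. The 3 panels on TH17 cultures share the same wild-type DMSO libraries.

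TH17 cultures with Srci1 held more Xcl1 and Ccl1 and less Ccl3, Ccl4 and Ccl20 than TH17 cultures with DMSO. Of the 7 genes 2 rose and 3 fell, where 33.8% of tested genes rose and 7.08% fell, 40.9% in all. The 2 rises are near the background share, while falls were uncommon among all genes before any rescaling of the libraries. The members' median log2 difference was 0.23, beside 0.213 over all tested genes. Rises made up 82.7% of the calls over all genes, but 50.2% under median-of-ratios scaling and 52.3% under quantile normalization, so the split between rises and falls depends on the scaling. The share of TPM in ribosomal protein genes was 22.1 ± 0.59% with Srci1, against 28.4 ± 1.97% with DMSO (SD, n = 3 each), and its part in these differences was not tested.

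Ccl20 was 37.3, 31.6 and 30.6 TPM in Srci1-treated libraries, against 140.3, 128.6 and 141.8 TPM in DMSO libraries. It was 4.13-fold lower with Srci1 (log2 -2.02 ± 0.08, limma adjusted p = 1.63e-09; -2.23 relative to the median). Ccl4 was 11.6, 9.78 and 10.1 TPM with Srci1, against 30.6, 29.1 and 35.6 TPM with DMSO, or 3.03-fold lower (log2 -1.51 ± 0.10, limma adjusted p = 1.39e-07; -1.72 relative to the median). These 2 were the most abundant of the 7 transcripts with DMSO. Ccl3 was 6.22, 6.21 and 7.33 TPM with Srci1, against 11.7, 12.8 and 15.5 TPM with DMSO, or 2.02-fold lower (log2 -0.91 ± 0.14, limma adjusted p = 0.000218; -1.13 relative to the median). None of these 3 genes overlapped between the groups.

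Xcl1 was 13.7, 15.1 and 21.2 TPM with Srci1, against 2.37, 3.09 and 5.20 TPM with DMSO, or 4.69-fold higher (log2 1.98 ± 0.18, limma adjusted p = 2.43e-06; 1.77 relative to the median). Ccl1 was 1.67, 2.61 and 2.93 TPM with Srci1, against 0.41, 0.20 and 0 TPM with DMSO. Its ratio of means of 11.8 has a denominator near 0, and its log2 difference of 1.49 ± 0.14 (limma adjusted p = 3.43e-06; 1.28 relative to the median) became 3.30 with a pseudocount of 0.1. Both rises were without overlap, yet left the 2 genes at low levels. Ccl5 was 7.34, 6.64 and 7.79 TPM with Srci1, against 9.04, 4.04 and 5.83 TPM with DMSO. Its difference did not pass the test (log2 0.23 ± 0.19, limma adjusted p = 0.368; 0.02 relative to the median), although without DMSO TH17 replicate 1 it was 0.49 with an adjusted p of 0.0218, and without DMSO TH17 replicate 2 it was -0.01. Cxcl10 was 5.10, 5.25 and 6.44 TPM with Srci1, against 5.52, 2.42 and 1.21 TPM with DMSO, and did not pass the test (log2 0.84 ± 0.53, limma adjusted p = 0.224).

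Among markers of other cells, the 7 CD8 T cell and NK cell markers summed to 86.4 to 114.9 TPM with Srci1, against 49.1 to 52.2 TPM with DMSO, of which Klrd1 made up 88.9 and 42.8 TPM on average. Ncr1 and Klra1 were at 0 in both groups. Myeloid and dendritic cell markers summed to 5.04 to 6.2 TPM with Srci1, against 5.13 to 7.99 TPM with DMSO, and limma called 0 of 3 tested, also 0 at an unadjusted p under 0.05. B cell markers summed to 0.46 to 1.22 TPM with Srci1, against 0.78 to 1.03 TPM with DMSO, and limma called 0 of 3 tested, also 0 at an unadjusted p under 0.05. Their part in the chemokine differences was not tested.

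Set directly against the knockout, Srci1-treated TH17 cultures held less of every CC and C ligand among the 7 genes. Of the 7 genes limma called 0 higher, or 1 at an unadjusted p under 0.05, and 6 lower, where 30.6% of tested genes rose and 18.4% fell, 49.1% in all. The members' median log2 difference was -3.78, against 0.114 over all tested genes, and rises made up 62.4% of all calls, or 49.1% under median-of-ratios scaling. Markers of other cells differed as well. Myeloid and dendritic cell markers summed to 5.04 to 6.2 TPM with Srci1 and 13.8 to 16.0 TPM in the knockout, with 2 of 3 tested lower. B cell markers summed to 0.46 to 1.22 TPM with Srci1 and 13.9 to 14.2 TPM in the knockout, with 3 of 3 tested lower. CD8 T cell and NK cell markers summed to 86.4 to 114.9 TPM with Srci1 and 12.7 to 16.8 TPM in the knockout, with 2 of 4 tested higher and 1 lower. Of these sums, Klrd1 made up 88.9 TPM with Srci1 and 1.27 TPM in the knockout on average. The lower marker was Cd8a, at 0.583 TPM with Srci1 and 4.74 TPM in the knockout. The ribosomal protein share of TPM was 22.1 ± 0.59% with Srci1 and 28.7 ± 1.23% in the knockout (SD, n = 3 each), and the part of these in the chemokine differences was not tested. Xcl1 averaged 16.7 ± 3.99 TPM with Srci1 and 1584 ± 69.7 TPM in the knockout (SD, n = 3 each), a 95.04-fold lower level (log2 -6.51 ± 0.18, limma adjusted p = 3.51e-12). Ccl1 averaged 2.40 ± 0.65 TPM with Srci1 and 135.2 ± 4.35 TPM in the knockout, 56.2-fold lower (log2 -5.34 ± 0.14, limma adjusted p = 2.37e-12). Against the wild-type DMSO libraries that both conditions share, the log2 difference of Xcl1 was 1.98 with Srci1 and 8.49 in the knockout, and that of Ccl1 was 1.49 with Srci1 and 6.84 in the knockout. Ccl4 was 21.9-fold lower, Ccl3 15.7-fold lower, Ccl5 4.71-fold lower and Ccl20 2.49-fold lower with Srci1 than in the knockout, with limma adjusted p from 8.31e-13 for Ccl4 to 8.38e-07 for Ccl5. Against the shared DMSO libraries, the log2 difference of Ccl3 was -0.91 with Srci1 and 2.86 in the knockout, and that of Ccl4 was -1.51 with Srci1 and 2.82 in the knockout. Cxcl10 averaged 5.6 ± 0.73 TPM with Srci1 and 1.67 ± 0.39 TPM in the knockout without overlap, and did not pass the test (log2 1.31 ± 0.53, limma adjusted p = 0.0545). It passed in 4 of 13 alternative fits, among them one with only the compared groups (adjusted p = 0.000417).

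Treg cultures with Srci1 held more Ccl1 and less Ccl3, Ccl4, Ccl5 and Ccl20 than Treg cultures with DMSO. Of the 7 genes 1 rose and 4 fell, where 17.1% of tested genes rose and 10% fell, 27.2% in all. The members' median log2 difference was -0.87, against 0.114 over all tested genes. Rises were 63% of all calls, and 42.8% under median-of-ratios scaling.

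Ccl3 was 57.7, 42.3 and 40.9 TPM with Srci1, against 244.4, 236.5 and 236.4 TPM with DMSO, or 5.09-fold lower (log2 -2.34 ± 0.14, limma adjusted p = 6.34e-08; -2.45 relative to the median). Ccl4 was 55.8, 66.5 and 56.1 TPM with Srci1, against 266.6, 236.4 and 236.7 TPM with DMSO, or 4.15-fold lower (log2 -2.04 ± 0.10, limma adjusted p = 8.99e-09; -2.15 relative to the median). These were the most abundant of the 7 transcripts in Treg cultures with DMSO. Ccl5 was 9.83, 13.04 and 11.4 TPM with Srci1, against 35.5, 46.8 and 43.7 TPM with DMSO, or 3.68-fold lower (log2 -1.79 ± 0.19, limma adjusted p = 1.72e-05; -1.90 relative to the median). Thus Ccl3, Ccl4 and Ccl5 all fell without overlap. Ccl20 was 14.8, 15.04 and 15.7 TPM with Srci1, against 30.3, 29.5 and 25.9 TPM with DMSO, or 1.88-fold lower (log2 -0.87 ± 0.08, limma adjusted p = 5.61e-06; -0.98 relative to the median).

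Ccl1 was the exception, at 162.0, 149.1 and 174.9 TPM with Srci1, against 52.2, 54.2 and 56.0 TPM with DMSO. It was 2.99-fold higher (log2 1.56 ± 0.14, limma adjusted p = 3.5e-06; 1.45 relative to the median), which made it the most abundant of the 7 in Srci1-treated Treg cultures. Its receptor gene Ccr8 fell in the same libraries, to 33.9 ± 1.17 TPM with Srci1, against 62.9 ± 1.89 TPM with DMSO (SD, n = 3 each; log2 -0.88, limma adjusted p = 2.64e-06). Xcl1 was 98.4, 95.9 and 93.1 TPM with Srci1, against 113.1, 111.0 and 103.5 TPM with DMSO. The Srci1-treated libraries were all lower, but the difference was small and did not pass the test (log2 -0.19 ± 0.18, limma adjusted p = 0.478), except in a fit of only the compared groups (adjusted p = 0.0259). Cxcl10 was 2.51, 14.5 and 1.58 TPM with Srci1, against 2.20, 3.14 and 1.54 TPM with DMSO. Its higher mean rested on replicate 2, and the log2 difference of 0.69 ± 0.53 (limma adjusted p = 0.362) became -0.10 without it.

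Marker sums of other cells in these Treg libraries were 2.60 to 4.02 TPM with Srci1 and 4.20 to 5.71 TPM with DMSO for myeloid and dendritic cells, with 1 of 3 tested markers lower and the others not called, and Lyz2 at 0 in both groups. B cell markers summed to 1.12 to 2.43 TPM with Srci1 and 2.17 to 4.14 TPM with DMSO, and limma called 0 of 3 tested, or 1 at an unadjusted p under 0.05. CD8 T cell and NK cell markers summed to 8.89 to 9.85 TPM with Srci1 and 9.81 to 10.1 TPM with DMSO, with 1 of 4 tested higher, 1 lower and Ncr1 at 0 in both groups. The ribosomal protein share of TPM was 20.9 ± 0.49% with Srci1 and 25.03 ± 0.17% with DMSO. Their part in the chemokine differences was not tested.

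The effect of Srci1 was then compared between the culture types, as the log2 difference in TH17 cultures minus that in Treg cultures. By limma adjusted p under 0.05 this difference was called positive for 4 of the 7 genes and negative for 1, where 11.3% of tested genes were called positive and 2.95% negative, 14.2% in all. The members' median was 0.53, against 0.127 over all tested genes, and positive values were 79.2% of all calls, or 62.1% under median-of-ratios scaling. The value for Xcl1 was 2.17 ± 0.26 (limma adjusted p = 9.71e-05), with log2 differences of 1.98 in TH17 and -0.19 in Treg cultures. That for Ccl5 was 2.02 ± 0.28 (limma adjusted p = 0.000262), with 0.23 in TH17 and -1.79 in Treg cultures. Thus the Srci1 effect on Xcl1 was called only in TH17 cultures and that on Ccl5 only in Treg cultures, and the difference between cultures passed the test for each. Ccl3 fell in both cultures, and by more in Treg cultures (1.43 ± 0.20, limma adjusted p = 0.000301). Ccl20 fell in both too, but by more in TH17 cultures (-1.15 ± 0.12, limma adjusted p = 2.89e-05).

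Ccl4 showed a smaller difference of the same kind as Ccl3 (0.53 ± 0.14, limma adjusted p = 0.0243), which was not stable. Its adjusted p was 0.172 under median-of-ratios scaling, 0.105 under quantile normalization and 0.0511 with a pseudocount of 0.1. It was 0.0543 without DMSO TH17 replicate 2, 0.0598 without Srci1 TH17 replicate 1, 0.0667 without DMSO Treg replicate 1, 0.0638 without Srci1 Treg replicate 1 and 0.0596 without Srci1 Treg replicate 3. Ccl1 rose in both cultures, by 1.49 in TH17 and 1.56 in Treg cultures, and the difference between them did not pass the test (-0.07 ± 0.20, limma adjusted p = 0.875). That comparison depends on the pseudocount, since Ccl1 was near 0 in TH17 cultures with DMSO: with 0.1 it was 1.72 (limma adjusted p = 0.0668). Cxcl10 did not pass the test either (0.16 ± 0.75, limma adjusted p = 0.929).

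**Figure D3:**
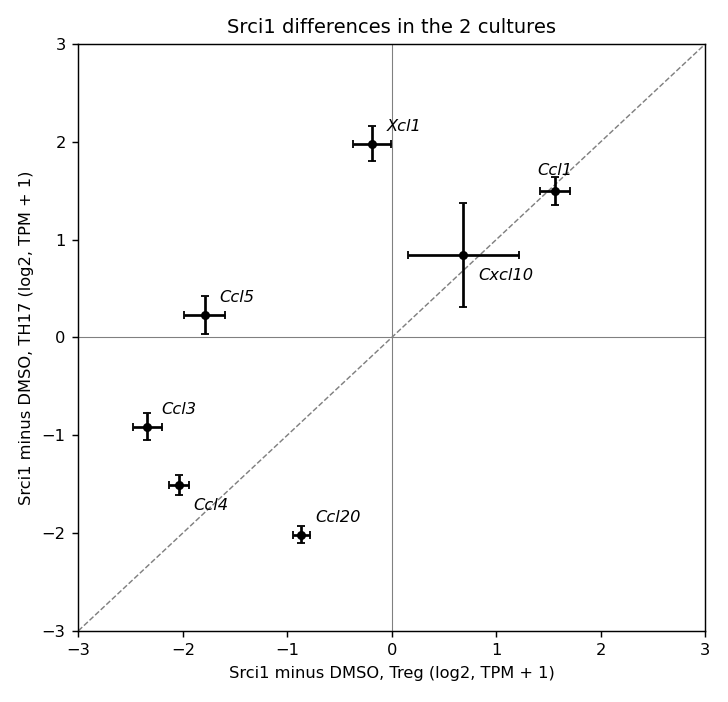
The Srci1 minus DMSO log2 difference of each gene in TH17 cultures (vertical axis) against that in Treg cultures (horizontal axis), on the log2(TPM + 1) scale, with standard errors as bars and a dashed line where both are equal. Ccl1 sits on the line at about 1.5 in both cultures, Xcl1 and Ccl5 lie far above it, and Ccl20 lies below it.

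Treg cultures with DMSO held more Ccl3, Ccl4, Ccl5, Xcl1 and Ccl1 and less Ccl20 than TH17 cultures with DMSO, the same libraries that the knockout was compared with. Of the 7 genes 5 rose and 1 fell, where 32.3% of tested genes rose and 12.5% fell, 44.8% in all. The members' median log2 difference was 2.92, against 0.181 over all tested genes, and rises were 72% of all calls, or 49.7% under median-of-ratios scaling. These groups differ in TGFβ dose and in every added cytokine, and the contribution of each cannot be told apart. Ccl3 averaged 239.1 ± 4.59 TPM in Treg cultures and 13.3 ± 1.98 TPM in TH17 cultures (SD, n = 3 each), a 17.9-fold difference (log2 4.07 ± 0.14, limma adjusted p = 3.76e-11). Ccl4 averaged 246.6 ± 17.3 TPM in Treg cultures and 31.8 ± 3.42 TPM in TH17 cultures, a 7.76-fold difference (log2 2.92 ± 0.10, limma adjusted p = 3.76e-11). Ccl5 was 6.67-fold higher in Treg cultures (log2 2.61 ± 0.19, limma adjusted p = 1.24e-07). Xcl1 averaged 109.2 ± 5.06 TPM in Treg cultures and 3.55 ± 1.47 TPM in TH17 cultures, a 30.7-fold difference (log2 4.64 ± 0.18, limma adjusted p = 1.38e-10). Ccl1 averaged 54.1 ± 1.91 TPM in Treg cultures and 0.203 ± 0.205 TPM in TH17 cultures (log2 5.53 ± 0.14, limma adjusted p = 2.6e-12, or 7.77 with a pseudocount of 0.1). Ccl20 was the one gene lower in Treg cultures, at 28.6 ± 2.35 TPM against 136.9 ± 7.26 TPM in TH17 cultures, 4.79-fold lower (log2 -2.22 ± 0.08, limma adjusted p = 8.7e-11). Cxcl10 did not pass the test (log2 -0.18 ± 0.53, limma adjusted p = 0.807) and was 0.23 without DMSO TH17 replicate 1. Myeloid and dendritic cell markers summed to 4.20 to 5.71 TPM in Treg cultures and 5.13 to 7.99 TPM in TH17 cultures, and B cell markers to 2.17 to 4.14 TPM in Treg cultures and 0.78 to 1.03 TPM in TH17 cultures. CD8 T cell and NK cell markers summed to 9.81 to 10.1 TPM in Treg cultures and 49.1 to 52.2 TPM in TH17 cultures, with 1 of 4 tested higher and 2 lower. Of these sums, Klrd1 made up 2.87 TPM in Treg cultures and 42.8 TPM in TH17 cultures on average. The part of these marker differences in the chemokine differences was not tested.

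STAT3-knockout TH17 cultures held more Xcl1, Ccl20 and Ccl1 and less Ccl3 than Treg cultures with DMSO. These groups differ in genotype, in TGFβ dose and in every other added cytokine, and the contribution of each cannot be told apart. Of the 7 genes 3 rose and 1 fell, where 17.3% of tested genes rose and 24.7% fell, 42% in all, and the members' median log2 difference was -0.10, beside -0.0648 over all tested genes. Rises were 41.2% of all calls, and 50.5% under median-of-ratios scaling. Xcl1 was 14.5-fold higher in the knockout (log2 3.85 ± 0.18, limma adjusted p = 1.09e-09). Ccl20 was 2.90-fold higher (log2 1.5 ± 0.08, limma adjusted p = 5.76e-09) and Ccl1 2.50-fold higher (log2 1.31 ± 0.14, limma adjusted p = 5.57e-06). Ccl3 was 2.31-fold lower, at 103.4 ± 14.97 TPM in the knockout and 239.1 ± 4.59 TPM in Treg cultures (log2 -1.21 ± 0.14, limma adjusted p = 1.02e-05). Its neighbour Ccl4 did not pass the test, at 230.0 ± 18.6 TPM in the knockout and 246.6 ± 17.3 TPM in Treg cultures (log2 -0.10 ± 0.10, limma adjusted p = 0.447). Ccl5 was lower in every knockout library than in any Treg library and did not pass the test (log2 -0.28 ± 0.19, limma adjusted p = 0.266), nor did Cxcl10 (log2 -0.28 ± 0.53, limma adjusted p = 0.705). Myeloid and dendritic cell markers summed to 13.8 to 16.0 TPM in the knockout and 4.20 to 5.71 TPM in Treg cultures, with 2 of 3 tested higher and Tyrobp at 0 in both groups. B cell markers summed to 13.9 to 14.2 TPM in the knockout and 2.17 to 4.14 TPM in Treg cultures, with 3 of 3 tested higher. CD8 T cell and NK cell markers summed to 12.7 to 16.8 TPM in the knockout and 9.81 to 10.1 TPM in Treg cultures, with 2 of 4 tested higher and 2 lower. What these marker differences have to do with the chemokine differences was not tested.

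The unequal shift of the adjacent genes Ccl3 and Ccl4 shows in their ratio. Ccl4 over Ccl3 was 1.86, 1.58 and 1.38 in TH17 libraries with Srci1, 2.23, 1.86 and 2.7 in STAT3-knockout TH17 libraries, 0.967, 1.57 and 1.37 in Treg libraries with Srci1, 1.09, 1.00 and 1.00 in Treg libraries with DMSO, and 2.62, 2.28 and 2.30 in TH17 libraries with DMSO. The ratio was at least 1.86 in every vehicle-treated TH17 library, knockout or wild type, and at most 1.09 in Treg libraries with DMSO. In TH17 libraries with Srci1 it lay below every wild-type TH17 library with DMSO and overlapped the knockout. No test was run on the ratio.

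The summed transcript of the 7 genes and its makeup were then set out by group. The sum was 82.2 ± 4.69 TPM in TH17 cultures with Srci1, 2171 ± 71.9 TPM in STAT3-knockout TH17 cultures, 397.0 ± 3.77 TPM in Treg cultures with Srci1, 721.9 ± 20.6 TPM in Treg cultures with DMSO and 195.1 ± 13.2 TPM in TH17 cultures with DMSO (SD, n = 3 each). In TH17 cultures with DMSO the CCR6 ligand Ccl20 made up 70.2 ± 1.12% of the sum. It made up 40.5 ± 4.78% in TH17 cultures with Srci1, where Xcl1 reached 20.2 ± 4.03%. In the knockout Xcl1 made up 72.9 ± 1.26% and Ccl20 3.81 ± 0.22%. Ccl3 and Ccl4 led in Treg cultures with DMSO, at 33.1 ± 0.41% and 34.1 ± 1.5%. With Srci1 the leading transcript in Treg cultures was Ccl1, at 40.8 ± 3.42%, against 7.51 ± 0.47% with DMSO.

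**Figure D4:**
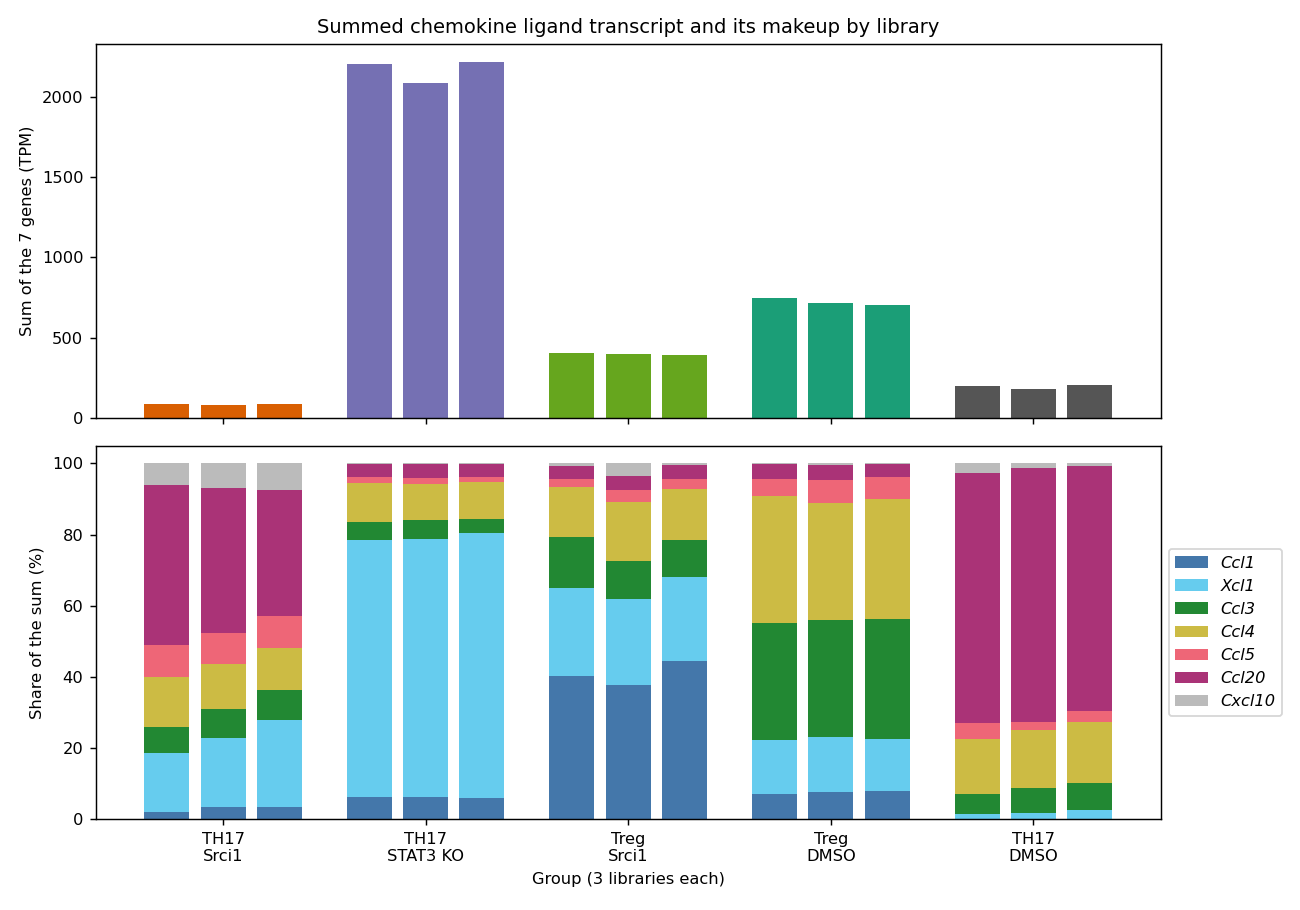
Sum of the 7 transcripts in TPM (upper panel) and the share of each gene in that sum in percent (lower panel), with 1 bar per library and 3 libraries per group. The knockout bars stand highest, at 2089 to 2221 TPM, and are mostly Xcl1, while the TH17 bars with DMSO are mostly Ccl20 and the Treg bars with Srci1 have Ccl1 as their largest part.

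RefSeq promoter sequences on GRCm38.p6 were at hand for 5 of the 7 genes, Xcl1, Ccl1, Ccl3, Ccl20 and Cxcl10. They are shown to set the patterns above, Cxcl10 with no called difference included, beside the known signalling inputs of each gene. Each stretch is the 250 bases before the annotated start, 5′ to 3′ on the gene's strand, with every motif match in capitals.
Xcl1, chr1:164935523-164935772, minus strand: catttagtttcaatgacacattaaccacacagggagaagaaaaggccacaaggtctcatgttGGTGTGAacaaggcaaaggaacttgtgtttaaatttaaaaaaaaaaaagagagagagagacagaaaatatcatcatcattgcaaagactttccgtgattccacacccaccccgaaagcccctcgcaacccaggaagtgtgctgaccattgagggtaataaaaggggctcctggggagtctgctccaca
Ccl1, chr11:82179813-82180062, minus strand: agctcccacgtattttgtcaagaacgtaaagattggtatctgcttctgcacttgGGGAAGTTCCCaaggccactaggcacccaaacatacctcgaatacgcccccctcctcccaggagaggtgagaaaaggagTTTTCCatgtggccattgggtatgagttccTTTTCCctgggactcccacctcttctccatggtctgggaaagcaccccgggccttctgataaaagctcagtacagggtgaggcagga
Ccl3, chr11:83649379-83649628, minus strand: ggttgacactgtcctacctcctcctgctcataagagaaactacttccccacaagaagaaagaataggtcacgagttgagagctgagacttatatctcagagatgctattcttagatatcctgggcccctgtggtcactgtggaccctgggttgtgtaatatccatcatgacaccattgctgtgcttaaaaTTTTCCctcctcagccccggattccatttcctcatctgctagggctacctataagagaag
Ccl20, chr1:83116516-83116765, plus strand: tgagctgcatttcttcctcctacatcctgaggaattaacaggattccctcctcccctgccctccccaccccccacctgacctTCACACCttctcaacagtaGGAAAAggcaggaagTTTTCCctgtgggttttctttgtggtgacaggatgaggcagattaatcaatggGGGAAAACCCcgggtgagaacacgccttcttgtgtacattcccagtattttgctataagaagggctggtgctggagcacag
Cxcl10, chr5:92348890-92349139, minus strand: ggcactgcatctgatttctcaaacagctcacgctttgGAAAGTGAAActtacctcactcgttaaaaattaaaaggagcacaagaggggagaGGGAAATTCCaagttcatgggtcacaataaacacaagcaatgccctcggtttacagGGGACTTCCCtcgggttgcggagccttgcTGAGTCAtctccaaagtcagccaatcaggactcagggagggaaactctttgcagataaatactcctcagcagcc
The motifs were searched on both strands. The STAT motif TTCNNNGAA, present in 7.02% of 32851 promoters of this length, was in none of the 5. The T-box motif TCACACC, in 3.33% of promoters, was in Xcl1 and Ccl20. The NF-kappaB motif (GGGA, any 4 bases, then CC), in 17.63%, was in Ccl1, Ccl20 and Cxcl10. The NFAT motif GGAAAA, in 20.43%, was in Ccl1, Ccl20 and Ccl3, and in Ccl20 a match overlapped the NF-kappaB match. Cxcl10 alone held the interferon-stimulated response element (GAAA, any 2 bases, then GAAA), in 2.98% of promoters, and the AP-1 motif TGANTCA, in 6.75%. A match is a string of letters and not a bound site, and a missing match says only that these letters are not in this window.

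Receptors of these ligands were read from the same libraries, and Ccr3 and Xcr1 were too low to be tested. Ccr8, the CCL1 receptor, averaged 52.2 ± 1.59 TPM in TH17 cultures with Srci1, 99.6 ± 3.31 TPM in the knockout and 38.2 ± 4.56 TPM in TH17 cultures with DMSO, and both differences from DMSO passed the test (log2 0.45, limma adjusted p = 0.000538 for Srci1; log2 1.36, limma adjusted p = 4.17e-09 for the knockout). The Srci1 effect on Ccr8 differed between TH17 and Treg cultures (log2 1.32, limma adjusted p = 4.49e-06). Ccr6, the CCL20 receptor, averaged 66.7 ± 10.3 TPM in the knockout and 28.1 ± 8.0 TPM in TH17 cultures with DMSO (log2 1.25, limma adjusted p = 0.000308), while Ccl20 fell. With Srci1 in TH17 cultures Ccr6 did not pass the test (log2 0.03, limma adjusted p = 0.931). Cxcr3, the CXCL10 receptor, rose to 29.1 ± 1.38 TPM in the knockout, against 3.8 ± 0.83 TPM in TH17 cultures with DMSO (log2 2.66, limma adjusted p = 4.57e-10).

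Among 31 other chemokine ligand genes, 16 were at 0 in every library and 6 passed the filter, none above a group mean of 11.9 TPM. The 5 highest were Ccl27a, Ccl22, Ccl25, Cxcl3 and Cx3cl1. In the knockout 2 of the 6 rose and 1 fell, shares near the 30.9% and 18.9% over all tested genes. Ccl22, a CCR4 ligand, was 6.69 ± 1.22 TPM in the knockout and 0.053 ± 0.050 TPM in TH17 cultures with DMSO (log2 2.86, limma adjusted p = 1.3e-09), and Cx3cl1, which encodes fractalkine, was 2.35 ± 0.07 TPM in the knockout and listed at 0 in the 3 wild-type libraries (limma adjusted p = 3.65e-08). Cxcl3, a neutrophil attractant, was 0.033 ± 0.058 TPM in the knockout and 3.21 ± 0.39 TPM in TH17 cultures with DMSO (log2 -2.02, limma adjusted p = 8.22e-07). With Srci1 in TH17 cultures limma called 0 higher, also 0 at an unadjusted p under 0.05, and 1 lower, which was Cxcl3, at 1.03 ± 0.42 TPM (log2 -1.07, limma adjusted p = 0.000625). In Treg cultures with Srci1 it called 0 higher, also 0 at an unadjusted p under 0.05, and 1 lower, Ccl22, at 1.26 ± 0.31 TPM with Srci1 and 4.59 ± 0.37 TPM with DMSO (log2 -1.31, limma adjusted p = 1.99e-05). Ccl25 and Ccl27a passed the test in none of these 3 comparisons.

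Genes of 4 programs in which these ligands are known to take part were counted beside them. These lists, too, were chosen with earlier results of these data known. Over all tested genes, 30.9% rose and 18.9% fell in the knockout, 33.8% rose and 7.08% fell with Srci1 in TH17 cultures, and 17.1% rose and 10% fell with Srci1 in Treg cultures. The rises with Srci1 in TH17 cultures among the type 1, interferon-stimulated and TH17 genes below are near this 33.8%. Of 14 type 1 and cytotoxic T cell genes, 9 rose and 3 fell in the knockout (median log2 1.41), 5 rose and 3 fell with Srci1 in TH17 cultures (median 0.25), and 1 rose and 8 fell with Srci1 in Treg cultures (median -0.79). Tbx21, the gene of the TH1 factor T-bet, averaged 21.9 ± 2.71 TPM in the knockout and 0.603 ± 0.125 TPM in TH17 cultures with DMSO (log2 3.83, limma adjusted p = 1.04e-11). In Treg cultures it averaged 11.8 ± 1.46 TPM with Srci1 and 45.0 ± 1.72 TPM with DMSO (log2 -1.85, limma adjusted p = 1.71e-07). Of the 11 interferon-stimulated genes tested out of 14, 8 rose and 1 fell in the knockout, 4 rose and 0 fell with Srci1 in TH17 cultures, and 0 rose and 9 fell with Srci1 in Treg cultures (medians 1.19, 0.28 and -0.54). At an unadjusted p under 0.05, 1 was lower with Srci1 in TH17 cultures and 1 higher with Srci1 in Treg cultures. Irf1, an interferon-induced transcription factor gene, averaged 150.9 ± 7.69 TPM in the knockout and 20.3 ± 2.01 TPM in TH17 cultures with DMSO (log2 2.84, limma adjusted p = 8.38e-12). Cxcl10, itself interferon-induced, passed the test in none of these comparisons. Of 14 genes induced by T cell receptor signalling, 9 rose and 4 fell in the knockout, 1 rose and 10 fell with Srci1 in TH17 cultures, and 1 rose and 12 fell with Srci1 in Treg cultures (medians 0.34, -0.49 and -0.86). Nr4a1, an immediate receptor-induced gene, was 74.2 ± 3.35 TPM with Srci1 and 196.8 ± 4.58 TPM with DMSO in TH17 cultures (log2 -1.40, limma adjusted p = 2.47e-09), and 131.9 ± 3.26 TPM with Srci1 and 372.3 ± 10.1 TPM with DMSO in Treg cultures (log2 -1.49, limma adjusted p = 2.77e-09). Of 12 TH17 genes, 1 rose and 8 fell in the knockout, 4 rose and 6 fell with Srci1 in TH17 cultures, and 2 rose and 2 fell with Srci1 in Treg cultures (medians -2.15, -0.39 and 0.03). The medians over all tested genes were 0.129 for the knockout, 0.213 for Srci1 in TH17 cultures and 0.114 for Srci1 in Treg cultures.

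The genes most like each member in pattern were found by the root mean square difference of log2(TPM + 1) over the 5 group means, after centring each gene. For Ccl3 they were Tbx21 at 0.42, Ccl4 at 0.45 and Fasl at 0.48, and for Ccl4 they were Ccl3 at 0.45, Pdcd1 at 0.53 and Fasl at 0.56, so the adjacent pair were among each other's nearest genes. Ccl5 had Ccl22 at 0.31, Irf7 at 0.32 and Dhx58 at 0.33. The nearest to Ccl20 were Nebl at 0.26, Smim3 at 0.34 and Matk at 0.40. Xcl1 and Ccl1 had no close match: Nkg7 was 1.02 from Xcl1 and Nrgn and Cd160 followed at 1.25 and 1.26, while Iigp1, Nkg7 and Ms4a4c were 0.87, 0.94 and 1.01 from Ccl1. Those distances compare with spans over the groups of 8.49 for Xcl1 and 7.09 for Ccl1. Cxcl10 matched Aacs, Pip4p2 and Fam219a at 0.09 to 0.11, but its own span of 1.31 over the groups was within the spread of its libraries. The log2(TPM + 1) scale shrinks differences among low values, so genes near in pattern can differ in fold change. Tbx21 was 0.603 TPM in wild-type TH17 cultures with DMSO and with Srci1, where Ccl3 was 13.3 and 6.59 TPM. In TH17 cultures with DMSO, Ccl22 was 0.053 TPM and Ccl5 6.30 TPM. The 5 group means are few points, and a likeness over them is a description.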

How the data were processed

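The authors deposited TPM values for 55421 Ensembl gene IDs in 15 libraries, and 0 columns were left unused. Per the submitters' processing notes, the tools were STAR 2.7.9a and RSEM 1.3.3 and the build was GRCm38. Of the annotation release, strandedness and filtering, the labels used here say nothing. Per the labels' protocols, libraries were made from poly(A) RNA with the NEBNext Ultra II kit. TPM are scaled to the same total in each library, so depth is unknown, and a rise of abundant genes lowers all others. Symbols were found for 55154 IDs.

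Values were analysed as log2(TPM + 1) with limma 3.58.1 in R 4.3.3 (moderated test with a mean-variance trend). The 12800 genes tested reached 1 TPM or more in 3 or more libraries. A single model held the 5 group means of all 15 libraries, leaving 10 residual degrees of freedom. The threshold was 0.05 for p adjusted over all tested genes by the Benjamini-Hochberg method. Fold changes in TPM are ratios of group means, and log2 differences understate changes of low genes. The fit was tested on simulated data. The members and gene lists were chosen with earlier results of these data known. Named genes were the 7 members, receptors of theirs, the 5 highest other ligands, up to 4 genes of smallest adjusted p of each list described, Stat3, and the 3 tested genes nearest to each member with a group mean of at least 5 TPM. Foxp3, Ctla4 and Il2ra were read as markers of the cultures. Klrd1, Cd8a and the single myeloid and B cell markers were named after their values were seen. Some genes taken by this rule are not described. Same-numbered libraries were not paired. Alternatives were a pseudocount of 0.1, no filter, a filter of 5 TPM, quantile normalization, median-of-ratios scaling, the compared groups alone, the replicate number as a block, and each library left out. Sequences were read with Biopython 1.88 from GENCODE M21 transcripts and the RefSeq promoter table.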

Additional observations from a re-analysis of the deposited data

Results flagged for a closer look

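For 5 of the 7 chemokine ligand genes the effect of Srci1 differed between the culture types by the test of the difference itself, taken as the log2 difference in TH17 cultures minus that in Treg cultures. The values were 2.17 for Xcl1, 2.02 for Ccl5, 1.43 for Ccl3, 0.53 for Ccl4 and -1.15 for Ccl20, with limma adjusted p of 9.71e-05, 0.000262, 0.000301, 0.0243 and 2.89e-05 in that order, each from 3 libraries per group. The call of Ccl4 was lost in 8 of 19 alternatives, with an adjusted p of 0.172 under median-of-ratios scaling and 0.105 under quantile normalization, which leaves 4 genes. Over all tested genes 14.2% passed this test. Xcl1 was higher with Srci1 in 3 of 3 TH17 libraries than in any DMSO TH17 library. It was lower in 3 of 3 Treg libraries than in any DMSO Treg library. That Treg difference was small and did not pass the test (log2 -0.19, limma adjusted p = 0.478). Ccl3, Ccl4 and Ccl20 were lower with Srci1 without overlap in both cultures, and Ccl5 was lower without overlap in Treg cultures and overlapped in TH17 cultures.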

How the results depend on the processing

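The 49 differences (7 genes in 7 comparisons) were recomputed under 13 alternatives each, or 19 for the culture difference. Of the 679 values this gave, 651 kept their direction and side of the threshold. Of the 37 called differences 36 stayed called under all alternatives run and 0 changed sign. The exception was the culture difference of Ccl4 (main 0.53), which was 0.46 with a pseudocount of 0.1, 0.39 under median-of-ratios scaling and 0.40 under quantile normalization, and 0.46 to 0.61 with a library left out. The cause was not tested. Reversals were all among differences that had not passed the test. The culture difference of Ccl1 was 1.72 with a pseudocount of 0.1 and -0.19 to 0.10 with a library left out. That of Cxcl10 was -0.0054 under quantile normalization and -0.35 to 0.94 with a library left out. Ccl5 with Srci1 in TH17 cultures was -0.000729 under median-of-ratios scaling, -0.047 under quantile normalization and -0.0066 to 0.49 with a library left out. Ccl4 in the knockout against Treg cultures was 0.0031 under quantile normalization. With a library left out, Cxcl10 was -0.55 to 0.23 for Treg against TH17 cultures and -0.10 to 1.19 for Srci1 in Treg cultures. Cxcl10 with Srci1 against the knockout passed with a pseudocount of 0.1 (adjusted p = 0.047), at least 5 TPM (0.0499), quantile normalization (0.0481) or only the compared groups (0.000417). The number of members called stayed within 1 of the main count under every alternative.

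The same-numbered libraries did not deviate together (correlations of deviations -0.171 to 0.128, over 0.1 in 2 of 30 pairs), so the numbers were not taken as pairs. With the replicate number as a block, 5063 genes were called for Srci1 in TH17 cultures, 6280 for the knockout, 3286 for Srci1 in Treg cultures, 5599 for Treg against TH17 cultures, 1655 for the culture difference, 6180 for Srci1 against the knockout and 5233 for the knockout against Treg cultures. The chemokine genes called were 5, 6, 5, 6, 5, 6 and 4 in that order, as without the block. TPM values carry no depth, so the counting error of low genes such as Ccl1 in TH17 cultures with DMSO and Cxcl10 could not be given.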

Other observations

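Treg replicate 2 with Srci1 held 14.5 TPM of Cxcl10, against 2.51 and 1.58 TPM in the other 2 libraries of that group, and its level was picked out after the values were seen. Ifng in the same library was 14.3 TPM, against 5.02 and 5.67 TPM in replicates 1 and 3. Cxcl9, another CXCR3 ligand, was at 0 in all 3.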
